A study of Mus musculus with 6 samples.

Results

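Inhibitory receptors were compared between WT and Scd-1 knockout (Scd-1-/-) mouse CD8+ effector T cells (Teff) in bulk RNA-seq. The set held 10 genes named by symbol, namely Pdcd1, Ctla4, Lag3, Havcr2, Tigit, Cd160, Btla, Cd244, Cd200r1 and Entpd1. All 10 were present in every library, out of 34745 genes measured. WT mice were C57BL/6J and knockout mice were B6.129-Scd1tm1Ntam/J, so the deletion was carried in the germline by every cell and not by T cells alone. The study used male mice of 6 to 8 weeks, and the wild types were bought whereas the knockouts were a donation from another institute. In both genotypes CD8+ T cells were isolated from spleen with a bead kit and stimulated with anti-CD3 (5 μg/mL), anti-CD28 (0.5 μg/mL) and IL-2 (100 U/mL) for 3 days. They were then held in IL-2 and harvested on day 6. Each genotype gave 3 libraries numbered 1 to 3. The labels do not say whether these came from separate animals, so the p-values measure the spread between libraries, which may be technical.

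Inhibitory receptors are surface proteins that T cells put on display after activation and that lower T cell receptor or costimulatory signalling when they meet their ligands. Several of them, PD-1 (Pdcd1) first, recruit phosphatases such as SHP-2 through tyrosine motifs in their tails, whereas CTLA-4 competes with CD28 for its ligands and CD39 (Entpd1) is an enzyme that breaks down extracellular ATP towards adenosine. They are raised for a time in any activated effector cell and are held together at a high level in exhausted T cells during chronic infection and in tumours, so their mRNA alone does not tell the states apart.

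Library totals lay between 14034479 and 15866216 counts. At this depth a gene seen 0 times may have had as many as 3 counts by counting error alone, which is 0.189 to 0.214 CPM (counts scaled to the library total). The deleted gene checked the labels: Scd1 had 3074 to 4272 counts across WT and 20 to 36 across Scd-1-/- libraries. Of 8 markers of CD8 T cells, all 8 were expressed in every library, with summed FPKM of 3008 to 3333 in WT and 3027 to 3064 in Scd-1-/- Teff. By the thresholds given below, 0 of them changed by edgeR or DESeq2, and 2 were lower at an unadjusted p under 0.05. Replicate 1 of both genotypes stood apart from the other 4 libraries on the first principal component, which held 43.0% of the variance. Results that rest on replicate 1 are therefore given with and without it.

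Levels are given as FPKM, which scales a gene's counts to its length and to the library total, and so can be compared between genes. In WT Teff the order ran from Lag3 (151 ± 27.9 FPKM, SD, n = 3) and Ctla4 (129 ± 10.3) through Tigit (53.8 ± 27.9) and Pdcd1 (33.3 ± 3.38) to Cd160 (6.78 ± 1.298), Entpd1 (5.66 ± 0.771), Havcr2 (2.84 ± 1.40) and Cd244 (1.77 ± 0.920). Btla (1.02 ± 0.310) and Cd200r1 (0.319 ± 0.143) were the least abundant. Neighbours in this order overlapped between libraries except at 4 steps, namely Ctla4 above Tigit, Pdcd1 above Cd160, Entpd1 above Havcr2 and Btla above Cd200r1. In Scd-1-/- Teff the first places were held by Ctla4 (133 ± 9.72 FPKM), Pdcd1 (130 ± 33.7), Lag3 (111 ± 53.3) and Tigit (69.8 ± 23.4), and these overlapped from each to the next. Pdcd1 thus moved from rank 4 to rank 2 and Havcr2 from rank 7 to rank 5 (12.7 ± 0.765), above Entpd1 (10.9 ± 0.311), Cd160 (8.53 ± 0.725) and Cd244 (7.39 ± 1.29).

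**Figure D1:**
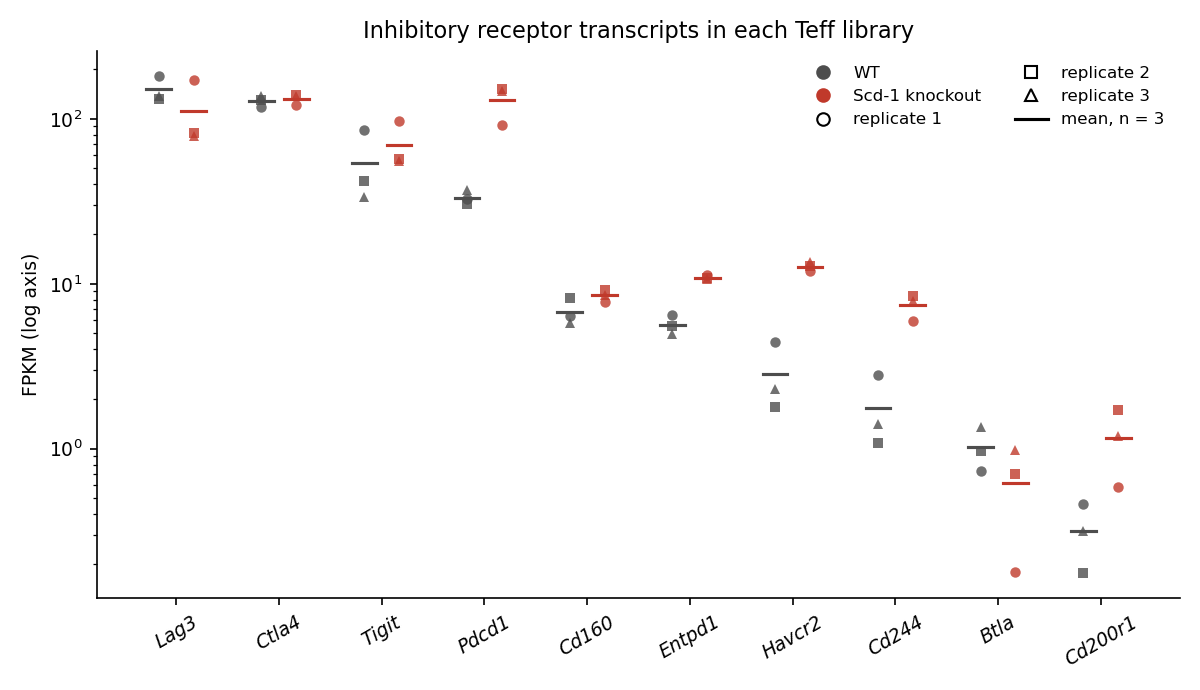
FPKM of each of the 10 receptor genes in the 6 libraries on a log axis, with a marker for each library (WT grey, Scd-1-/- red) and a line at each group mean. The libraries of the 2 genotypes are apart for Pdcd1, Havcr2, Cd244, Entpd1 and Cd200r1 and interleave for the other 5.

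Counts were compared with the quasi-likelihood test of edgeR, and a gene was called where it had both a log2 fold change of 1 or more in size and an unadjusted p under 0.001, which are the study's thresholds. Of the 10 receptors, 3 were called higher in Scd-1-/- Teff (Pdcd1, Havcr2 and Cd244) and 0 lower, by edgeR and by DESeq2. At an unadjusted p under 0.05 by edgeR, 5 of the 10 differed, all higher, against 5.42% of the 9627 genes with a mean FPKM of 1 or more higher and 4.68% lower (4.30% and 4.27% of the 17192 genes with any count). With the replicate number as a block that count was 9, of which 7 were higher and 2 lower (Lag3 and Btla), against 11.3% of the 9627 genes higher and 11.2% lower (8.02% and 8.64% of the 17192). Of the 9627 genes, edgeR called 0.499% higher and 0.239% lower, and DESeq2 called 1.08% and 0.592% (0.779% and 0.651% of the 17192). A total of 8 receptors reached that FPKM minimum. Btla and Cd200r1 did not, and their values come from the fit to the 17192 genes, of which 0.541% were called higher and 0.320% lower.

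With Benjamini-Hochberg adjustment over the genes tested, Pdcd1 alone had an adjusted p under 0.05 in edgeR, against 0.0727% of the 9627 genes higher and 0.0415% lower. In the fit to the 17192 genes, 4 receptors reached it, all higher (Pdcd1, Havcr2, Cd244 and Entpd1), against 0.314% of genes higher and 0.174% lower. With the replicate number as a block Pdcd1, Havcr2 and Cd244 were again the 3 receptors called, against 1.19% of genes higher and 0.717% lower (0.960% and 0.855% of the 17192). Adjusted p under 0.05 was then reached by 4 receptors, Pdcd1, Havcr2, Cd244 and Entpd1, all higher, against 2.64% of genes higher and 2.06% lower (2.24% and 2.12% of the 17192). Libraries of the 2 genotypes did not overlap for 5 receptors, which were Pdcd1, Havcr2, Cd244, Entpd1 and Cd200r1, all higher in Scd-1-/- Teff. The genotypes were apart in the same way for 7.67% of the 9627 genes, and for 8.32% with the knockout lower (6.31% and 7.33% of the 17192). The median log2 fold change of the 10 receptors was 0.68, and that of all 9627 genes was near 0 with a median size of 0.18. No test of the list as a whole was made.

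**Figure D2:**
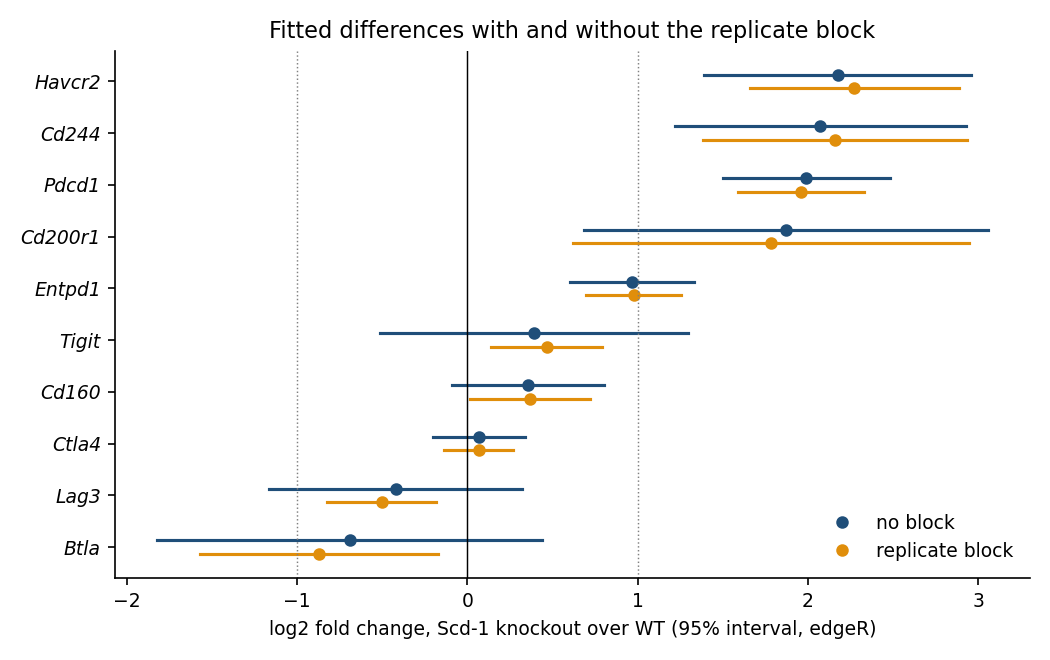
Log2 fold change (Scd-1-/- over WT) of the 10 receptor genes with 95% intervals, fitted by edgeR without and with the replicate number as a block, and dotted lines at the size threshold of 1. The intervals of Pdcd1, Havcr2, Cd244, Entpd1 and Cd200r1 lie above 0 without the block, and that of Ctla4 is narrow around 0.

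Pdcd1 (ENSMUSG00000026285, chr1:94038305-94052553, minus strand, GRCm38) encodes PD-1, the receptor for PD-L1 and PD-L2. Its level was 32.4, 30.5 and 37.0 FPKM in WT replicates 1 to 3 and 91.5, 151 and 148 FPKM in Scd-1-/- replicates 1 to 3. Every Scd-1-/- library lay above every WT library, and the lowest of them was replicate 1. Pdcd1 rose by a log2 fold change of 1.99 (SE 0.21), or 3.98-fold with a 95% interval of 2.83 to 5.59 (edgeR, adjusted p = 0.0259). With the block the log2 fold change was 1.96 and the adjusted p 0.00195. Leaving out each library in turn gave log2 fold changes from 1.87 to 2.19, past the thresholds in 6 of 6 fits. The adjusted p by edgeR stayed under 0.05 without replicate 1 of either genotype, but rose to 0.0991 and 0.164 without Scd-1-/- replicates 2 and 3 and to 0.259 and 0.174 without WT replicates 2 and 3. The genes whose log2 CPM followed that of Pdcd1 most closely over the 6 libraries, as a description, were Mplkip (r = 0.998), Samd3 (r = 0.996) and Eomes (r = 0.994), a T-box transcription factor of effector and memory CD8 T cells.

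Havcr2 (chr11:46454935-46481255, plus strand) encodes TIM-3, a receptor found on terminally differentiated effector and exhausted T cells as well as on myeloid and NK cells. It had 4.44, 1.80 and 2.30 FPKM in WT replicates 1 to 3 and 11.9, 12.7 and 13.5 FPKM in the Scd-1-/- replicates. The knockout libraries were close to each other, whereas WT replicate 1 had 2.17 times the mean of the other WT libraries. The log2 fold change was 2.18 (SE 0.34), or 4.52-fold with a 95% interval of 2.62 to 7.78, past the study's thresholds but with an adjusted p of 0.0816 by edgeR. With the block it was 2.27 and the adjusted p 0.00673. Without Scd-1-/- replicate 3 (2.13) or WT replicate 3 (2.03) the p rose to 0.00109 and 0.00131, and the call was lost. Closest to Havcr2 in profile were Ermn (r = 0.999), Rhoq (r = 0.999) and Klre1 (r = 0.997), the last a receptor of the killer cell lectin-like family.

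Cd244 (ENSMUSG00000004709, chr1:171559193-171609746, plus strand, named Cd244a in current annotation) encodes 2B4, a receptor of the SLAM family that binds CD48 and that can signal in either direction depending on the adaptors at hand. Its level was 2.81, 1.08 and 1.42 FPKM in WT replicates 1 to 3 (226, 80 and 107 counts) and 5.94, 8.42 and 7.81 FPKM in the Scd-1-/- replicates (490, 629 and 656 counts). The groups did not overlap, and as for Havcr2 the highest WT library was replicate 1, at 2.25 times the mean of the other WT libraries. Cd244 rose by a log2 fold change of 2.07 (SE 0.37), or 4.21-fold with a 95% interval of 2.33 to 7.61 (edgeR, adjusted p = 0.0921). The blocked log2 fold change was 2.16 with an adjusted p of 0.0171. The call was lost without Scd-1-/- replicate 2 (1.97), Scd-1-/- replicate 3 (2.03), WT replicate 2 (1.81) or WT replicate 3 (1.92), so it was lost in 4 of 6 such fits. Ly9, a gene of the same family on the opposite strand, runs over 18787 bases of the Cd244 locus but shares 0 exonic bases with it. Its own log2 fold change was -0.19. The profiles most like that of Cd244 were those of Gm13157 (r = 0.9995), Cdkn2a (r = 0.999) and Pik3r6 (r = 0.997).

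The 250 bases before the start of the 3 called genes are shown because they rose together, and 2 short motifs were looked for in them on both strands. The motifs were TGANTCA, the AP-1 site bound by Fos and Jun proteins, and AGGTGTGA, the T-box site bound by Eomes and T-bet. RefSeq sequences on GRCm38.p6 matched 8 of the 10 receptors. Lag3 and Cd200r1 had no entry in the set of promoters used, which does not show that RefSeq lacks them. Capitals mark a motif, and each sequence runs 5′ to 3′ on the strand of its gene (Pdcd1 chr1:94052554-94052803, minus strand, Havcr2 chr11:46454681-46454930, plus strand, and Cd244 chr1:171558943-171559192, plus strand).
Pdcd1: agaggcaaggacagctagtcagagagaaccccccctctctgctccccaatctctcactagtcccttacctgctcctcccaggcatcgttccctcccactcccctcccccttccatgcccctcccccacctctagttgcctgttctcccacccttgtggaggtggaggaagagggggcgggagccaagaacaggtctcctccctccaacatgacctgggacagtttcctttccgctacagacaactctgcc
Havcr2: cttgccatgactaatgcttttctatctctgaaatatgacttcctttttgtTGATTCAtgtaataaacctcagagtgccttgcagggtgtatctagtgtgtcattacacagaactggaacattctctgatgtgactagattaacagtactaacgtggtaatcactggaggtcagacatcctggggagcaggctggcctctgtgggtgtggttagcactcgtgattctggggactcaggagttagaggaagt
Cd244: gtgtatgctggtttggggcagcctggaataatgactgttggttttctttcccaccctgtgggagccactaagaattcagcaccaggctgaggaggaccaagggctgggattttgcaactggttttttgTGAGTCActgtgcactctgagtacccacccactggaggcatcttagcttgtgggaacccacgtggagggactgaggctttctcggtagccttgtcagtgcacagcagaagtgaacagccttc
An AP-1 match lay at -200 to -194 from the start in Havcr2 (TGATTCA) and at -122 to -116 in Cd244 (TGAGTCA), and none lay in the Pdcd1 window or in the windows of the other 5 receptors with an entry. Over 32851 promoters of the same length, 6.75% held an AP-1 match. The T-box motif was in none of the receptors' windows and in 1.12% of all promoters. A match of letters does not show that a factor binds there, nor does a missing match show the contrary.

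Entpd1 (chr19:40612366-40741602, plus strand) encodes CD39, an ectonucleotidase of exhausted CD8 T cells, regulatory T cells and many myeloid cells. It had 6.47, 5.58 and 4.94 FPKM in the WT replicates and 11.3, 10.8 and 10.7 FPKM in the Scd-1-/- replicates. The groups were apart, and the lowest knockout library was well above the highest WT library, replicate 1. The log2 fold change was 0.96 (SE 0.16), or 1.95-fold with a 95% interval of 1.52 to 2.51. It missed the size threshold, and its adjusted p was 0.0846 by edgeR without the block and 0.00810 with it. Without WT replicate 1 it passed both thresholds (1.09). Entpd1 lies 3.65 Mb from Scd1 on the same chromosome. Whether sequence of the 129 strain reaches it in the B6.129 line was not tested.

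Cd200r1 (chr16:44765736-44794978, plus strand) encodes the receptor for CD200, best known from myeloid cells and mast cells. It was near the detection limit, with 17, 6 and 11 counts in WT replicates 1 to 3, 22, 59 and 46 counts in Scd-1-/- replicates 1 to 3, and at most 1.72 FPKM. The groups did not overlap, but Scd-1-/- replicate 1 was close to WT replicate 1. Its log2 fold change was 1.87 (SE 0.54) with an adjusted p of 0.245 by edgeR, not past the thresholds. Without Scd-1-/- replicate 1 it passed them (2.21, adjusted p = 0.0310). Among its relatives, Cd200r4 had 26 to 29 counts in WT and 49 to 93 in Scd-1-/- Teff (log2 fold change 1.39, edgeR adjusted p = 0.196, and 0.0346 with the block), and how reads matching both genes were counted is not given in the sources used here.

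Btla (chr16:45224315-45257670, plus strand), the receptor for HVEM, was low as well, at 68, 83 and 117 counts in WT and 17, 60 and 95 counts in Scd-1-/- libraries. The groups overlapped, and the lowest library of all was Scd-1-/- replicate 1. The log2 fold change was -0.69 with a 95% interval of -1.82 to 0.44 (edgeR adjusted p = 0.755). Without that library it was -0.23, and without Scd-1-/- replicate 3 it was -1.19.

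Lag3, Ctla4 and Tigit, together with Pdcd1 the abundant receptors, were not called. Lag3 (ENSMUSG00000030124, chr6:124904361-124911705, minus strand), a CD4-like receptor for MHC class II, had 183, 132 and 137 FPKM in WT and 172, 81.9 and 78.2 FPKM in Scd-1-/- replicates 1 to 3. In both genotypes replicate 1 was the highest, and within each number the knockout was the lower. The log2 fold change was -0.42 with a 95% interval of -1.17 to 0.32 (edgeR adjusted p = 0.738), and -0.50 (-0.82 to -0.18) with the block (adjusted p = 0.0833). In replicates 2 and 3 alone it was -0.71, with an adjusted p of 0.00237 by edgeR, in the direction opposite to Pdcd1. The value depended on single libraries, at -0.90 without Scd-1-/- replicate 1 (adjusted p = 0.0762 by edgeR), -0.25 and -0.23 without Scd-1-/- replicates 2 and 3, and -0.24 without WT replicate 1.

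Ctla4 (chr1:60887000-60915832, plus strand), the competitor of CD28 for CD80 and CD86, was 117, 131 and 138 FPKM in WT and 121, 139 and 138 FPKM in Scd-1-/- Teff. The groups lay over each other, and of the 10 receptors it had the smallest log2 fold change in size. Its log2 fold change of 0.07 had a 95% interval of -0.20 to 0.34 (edgeR adjusted p = 0.906). It had 5148 to 6311 counts in a library, and the interval corresponds to 0.868-fold to 1.27-fold.

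Tigit (chr16:43648867-43664146, minus strand), which binds CD155 (Pvr) in competition with CD226, was 85.6, 42.2 and 33.6 FPKM in WT and 96.8, 57.4 and 55.2 FPKM in Scd-1-/- replicates. Replicate 1 was again the highest of each genotype, at 2.26 and 1.72 times the mean of the others. The log2 fold change was 0.39 with a 95% interval of -0.52 to 1.296 (edgeR adjusted p = 0.823), and 0.47 (0.14 to 0.79, adjusted p = 0.105) with the block. In replicates 2 and 3 alone it was 0.61 (edgeR adjusted p = 0.0420). It was 0.92 without WT replicate 1, 0.08 without Scd-1-/- replicate 1, and 0.24 and 0.13 without WT replicates 2 and 3. Cd160 (chr3:96798763-96829351, minus strand), a GPI-anchored receptor that also binds HVEM, was 6.34, 8.23 and 5.75 FPKM in WT and 7.77, 9.22 and 8.60 FPKM in Scd-1-/- Teff. The groups overlapped, with a log2 fold change of 0.35 and a 95% interval of -0.09 to 0.80 (edgeR adjusted p = 0.599). Cd160 shares 68 exonic bases with Pdzk1 on the opposite strand, which had 5 to 14 counts.

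Since same-numbered libraries deviated together, the ratio of Scd-1-/- to WT within each number was also taken. All 10 receptors kept 1 direction in the 3 pairs, 8 higher and 2 lower (Lag3 and Btla), although Ctla4 was practically level in pair 3. Of the 9627 genes, 20.6% were higher and 24.7% lower in all 3 pairs (15.7% and 20.0% of the 17192). For 7 of the 10 the ratio was smallest in size in pair 1, against 50.6% of the 9627 genes and 48.9% of the 17192, counting those above 0 FPKM in every library. The log2 ratio of FPKM was 1.50, 2.31 and 2.00 for Pdcd1 in pairs 1 to 3. It was 1.43, 2.83 and 2.55 for Havcr2, and 1.08, 2.97 and 2.46 for Cd244. For Lag3 it was -0.08, -0.69 and -0.81, so pair 1 was the closest to 0 there. With replicate 1 of both genotypes left out, 5 receptors were called, all higher, against 2.25% of the genes over the FPKM minimum and 2.35% of those with any count called higher in that fit. Their log2 fold changes were 2.19 for Pdcd1, 2.72 for Havcr2, 2.74 for Cd244, 1.06 for Entpd1 and 2.58 for Cd200r1.

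**Figure D3:**
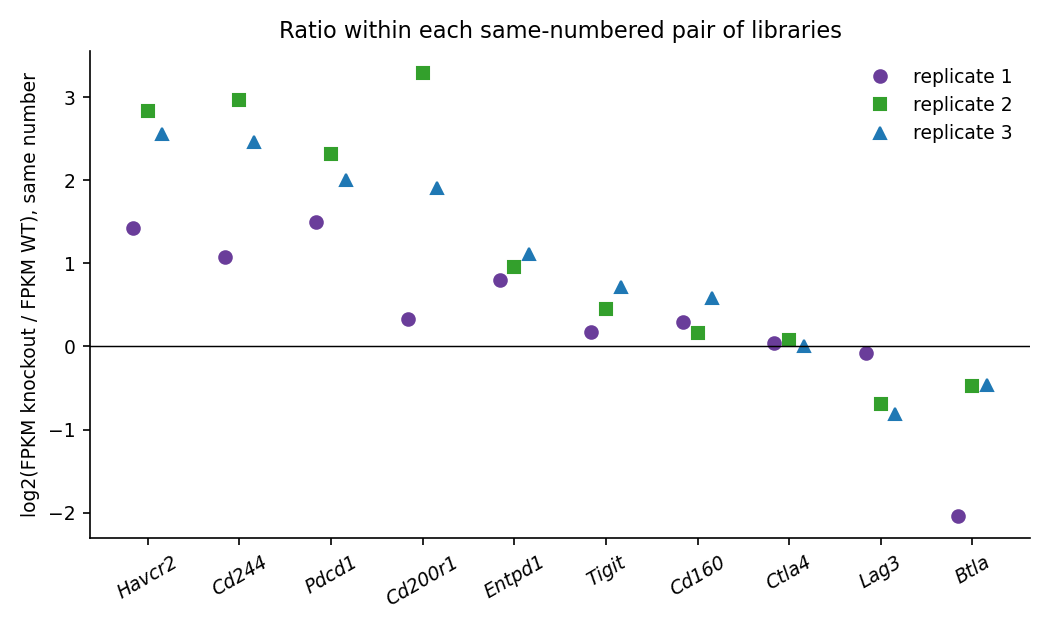
Log2 ratio of FPKM, Scd-1-/- over WT, within each replicate number for the 10 receptor genes. Pair 1 lies closer to 0 than pairs 2 and 3 for 7 genes, and for Btla it lies farthest from 0.

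The FPKM of the 10 receptors summed to 439, 353 and 361 in the WT replicates and to 520, 473 and 462 in the Scd-1-/- replicates, so the groups were apart. That separation rested on Pdcd1, since the other 9 receptors summed to 407, 323 and 324 in WT and to 428, 322 and 314 in Scd-1-/- Teff, which overlapped. Pdcd1 made up 7.38%, 8.62% and 10.3% of this sum in WT and 17.6%, 32.0% and 32.1% in Scd-1-/- Teff. The share of Lag3 was 41.6%, 37.4% and 37.9% in WT against 33.2%, 17.3% and 16.9%, so that in Scd-1-/- replicates 2 and 3 Pdcd1 took a larger share than Lag3. These shares also move with Pdcd1, and without it Lag3 made up 44.9%, 40.9% and 42.3% in WT and 40.3%, 25.5% and 24.9% in Scd-1-/- Teff. Tigit overlapped between the genotypes at 9.29% to 19.5% and 11.96% to 18.6%.

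**Figure D4:**
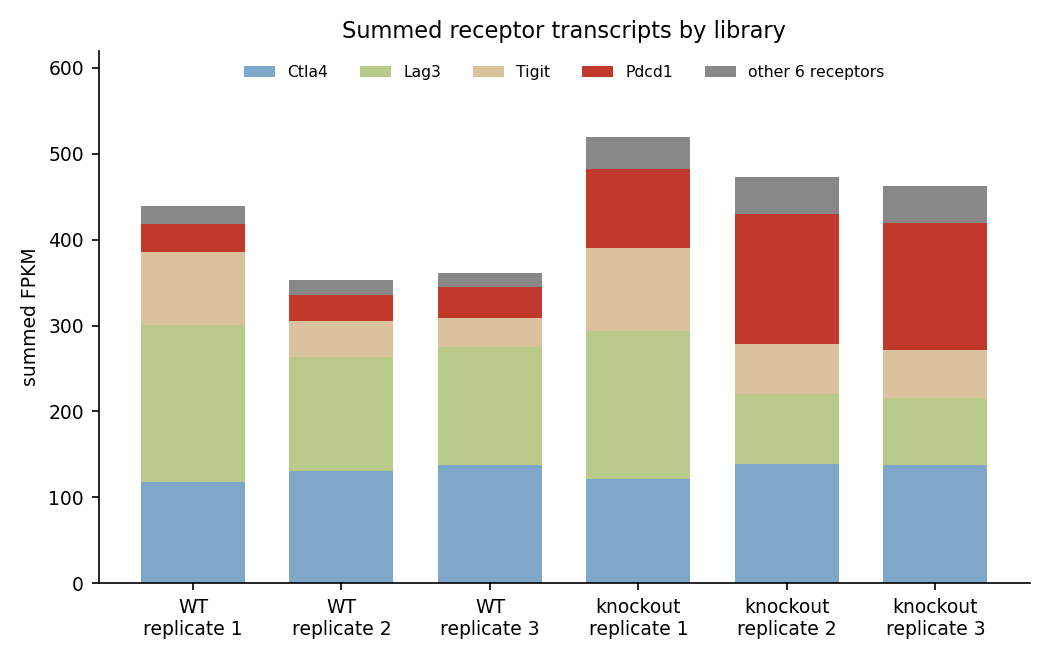
Summed FPKM of the receptor genes in each of the 6 libraries, stacked by gene for Ctla4, Lag3, Tigit and Pdcd1, with the other 6 receptors together on top. Of the bar's height, Pdcd1 takes 7.38% to 10.3% in WT and 17.6% to 32.1% in Scd-1-/- Teff, whereas Lag3 takes 37.4% to 41.6% and 16.9% to 33.2%.

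Ligands of the receptors were measured in the same T cells. Of 15 ligand genes, 10 reached the FPKM minimum and 0 were called by edgeR without the block, with 4 higher and 2 lower at an unadjusted p under 0.05. DESeq2 called 2 of them, both lower. With the block 1 was called higher and 1 lower. The higher was Lgals3, galectin-3, which binds glycans on LAG-3 among others (blocked log2 fold change 1.31, adjusted p = 0.00502, against 1.20 and 0.378 without the block). The lower was Tnfrsf14, which encodes HVEM, the ligand of both BTLA and CD160. Tnfrsf14 had 5.19, 6.04 and 5.10 FPKM in WT and 2.21, 2.66 and 2.29 FPKM in Scd-1-/- Teff, and its groups were apart (unblocked log2 fold change -1.17, adjusted p = 0.118, and 0.0252 with the block). Cd48, the ligand of 2B4, averaged 82.1 FPKM in WT and 131 in Scd-1-/- Teff (log2 fold change 0.70, edgeR adjusted p = 0.273, and 0.0444 with the block). Cd200, the ligand of CD200R1, averaged 1.85 and 0.764 FPKM (log2 fold change -1.25, edgeR adjusted p = 0.248, and 0.0427 with the block). For the ligands of PD-1, the log2 fold changes were 0.08 for Cd274 and 0.64 for Pdcd1lg2 (13.2 against 8.57 FPKM, edgeR adjusted p = 0.311). The ligands of CTLA-4 went opposite ways, each with its groups apart. Cd80 averaged 4.62 FPKM in WT and 9.04 in Scd-1-/- Teff (log2 fold change 0.99, edgeR adjusted p = 0.274). Cd86 was below the FPKM minimum (log2 fold change -1.12, edgeR adjusted p = 0.392).

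Downstream, 14 of 15 signalling partners were tested and 1 was called, higher, by edgeR and by DESeq2. This was Sh2d1b1, which encodes EAT-2, an adaptor of SLAM family receptors including 2B4. It had 10, 8 and 2 counts in WT and 42, 155 and 127 in Scd-1-/- Teff, and the groups were apart (log2 fold change 3.97, edgeR adjusted p = 0.0890, and 0.0130 with the block). Sh2d1b1 averaged 0.18 FPKM in WT and 2.84 in Scd-1-/- Teff, so it reached the FPKM minimum through the knockout alone. The related Sh2d1b2 was at 0 counts in the 3 WT libraries and at 2, 15 and 15 counts in the knockout libraries, and reads of this pair may have been split between them. Sh2d1a, encoding SAP, had a log2 fold change of 0.60 (edgeR adjusted p = 0.274). Dok2, a docking adaptor, had 0.47 (edgeR adjusted p = 0.262, and 0.0426 with the block). The phosphatases that PD-1 and related receptors recruit had log2 fold changes of -0.22 for Ptpn6 (SHP-1), -0.12 for Ptpn11 (SHP-2) and 0.15 for Inpp5d (SHIP-1), and none of these was called. In the adenosine pathway that CD39 feeds, 8 of 11 genes were tested and 0 were called by edgeR, with or without the block, or by DESeq2. At an unadjusted p under 0.05 by edgeR, 1 differed, Ada. Nt5e (CD73, the enzyme after CD39) had a log2 fold change of 0.03, Adora2a (an adenosine receptor of T cells) 0.17 and Ada (adenosine deaminase) -0.80.

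Among 14 genes listed as other inhibitory receptors, 11 were tested and 1 was called without the block, Klrg1, a marker of short-lived effector cells. DESeq2 called 3 of the 11, all higher, and at an unadjusted p under 0.05 by edgeR 5 were higher and 3 lower. Klrg1 had 21, 3 and 17 counts in WT and 107, 220 and 354 in Scd-1-/- Teff (16.04-fold, with a 95% interval of 5.57 to 46.2, edgeR adjusted p = 0.0847, and 0.0108 with the block). The groups did not overlap, and the interval was wide. Klrg1 averaged 0.659 FPKM in WT and 10.6 in Scd-1-/- Teff, so it reached the FPKM minimum through the knockout alone. With the block Klrb1c, which encodes NK1.1, was called as well (3.09 without the block, edgeR adjusted p = 0.120, and 0.00591 with it). NK1.1 is an activating receptor, so the counts for this list include a gene that is not inhibitory. Klrc1, which encodes NKG2A, had a log2 fold change of 1.62 (edgeR adjusted p = 0.147, and 0.0393 with the block). Pecam1, by contrast, had a log2 fold change of -0.70, with an adjusted p of 0.157 without and 0.0220 with the block. Of 15 costimulatory receptors, all tested, 0 were called by edgeR with or without the block or by DESeq2, and 3 were lower at an unadjusted p under 0.05. Their median log2 fold change was -0.08. Cd226, the partner that competes with TIGIT for CD155, averaged 8.17 FPKM in WT and 4.32 in Scd-1-/- Teff (log2 fold change -0.89, edgeR adjusted p = 0.353, and 0.0301 with the block). Cd28, which shares its ligands with CTLA-4, had a log2 fold change of 0.09, and Icos had 0.08.

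**Figure D5:**
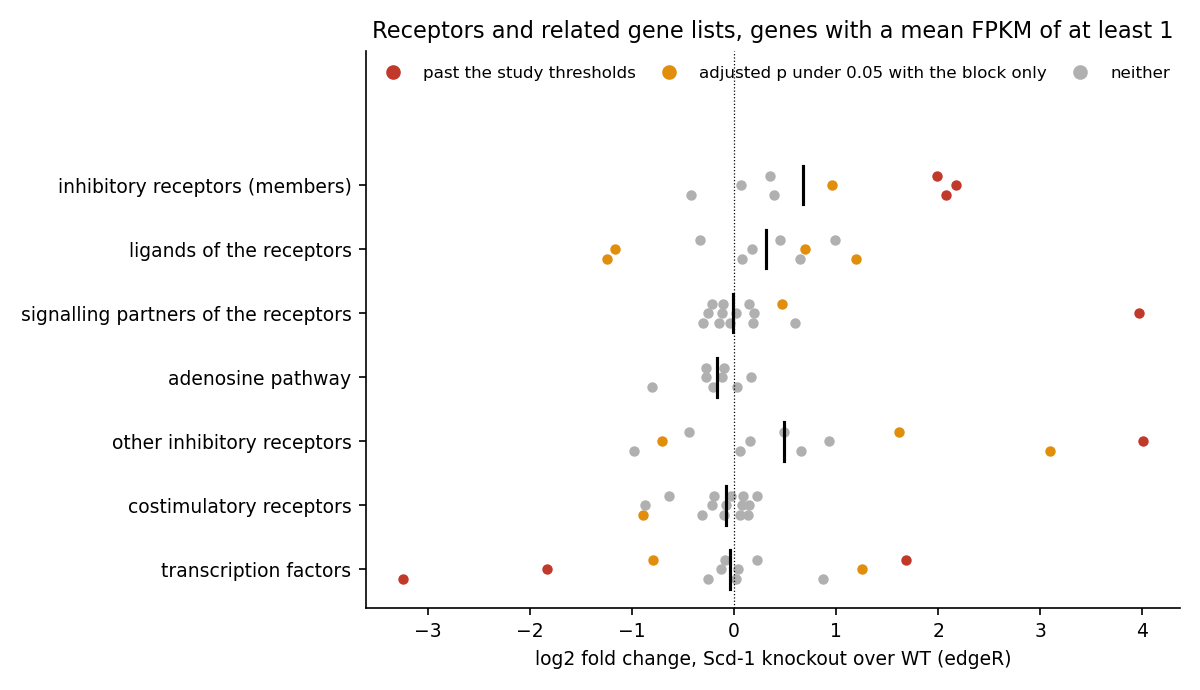
Log2 fold changes (Scd-1-/- over WT) of the tested genes in each list, with genes past the study's thresholds in red, those with an adjusted p under 0.05 only in the blocked fit in orange, and a short line at each median. The 8 tested receptors have a median of 0.68, the list of other inhibitory receptors (with Klrb1c) 0.49, the ligands 0.31 and the costimulatory receptors -0.08.

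Of 20 transcription factors known to act on receptor genes, 12 were tested, of which 1 was called higher and 2 lower (2 and 2 by DESeq2). The higher was Eomes and the lower were Tcf7, which encodes TCF-1 of stem-like T cells (log2 fold change -3.24), and Id3 (-1.83). Eomes had 3.62, 4.18 and 4.07 FPKM in WT and 9.34, 14.5 and 13.7 FPKM in Scd-1-/- Teff, and was lowest in replicate 1 of the knockout, as Pdcd1 was (log2 fold change 1.69, edgeR adjusted p = 0.0359). Tox, a factor that upholds receptor expression in exhausted cells, was below the FPKM minimum with a log2 fold change of -1.85 (edgeR adjusted p = 0.127 over all genes with a count, and 0.00888 with the block, where it was called lower). By edgeR, Id2 was called higher with the block but not without it (1.25 without it, adjusted p = 0.146, and 0.0171 with it). Irf4 had -0.79 (edgeR adjusted p = 0.177, and 0.00912 with the block). Log2 fold changes were 0.02 for Nr4a1, 0.04 for Tbx21 (T-bet) and 0.87 for Prdm1 (Blimp-1), and none of these was called.

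Some receptors are also carried by other blood cells, and in bulk RNA fewer cells of a type and less RNA per cell cannot be told apart. Of 8 NK cell markers, 4 were tested, all 4 with a positive log2 fold change, 1 called without the block (Tyrobp, 3.23), 2 by DESeq2 and 3 with the block (Fcgr3 and Klrb1c as well, with blocked log2 fold changes of 1.41 and 2.88). Klrb1c averaged 0.748 FPKM in WT and 6.28 in Scd-1-/- Teff, so it reached the FPKM minimum through the knockout alone. The summed FPKM of the 8 was 295 to 450 in WT and 613 to 634 in Scd-1-/- Teff, groups that were apart as for Cd244, Havcr2 and Klrg1, while the defining NK marker Ncr1 had at most 5 counts in any library. Nearly all of that sum was Nkg7, a granule gene that cytotoxic CD8 T cells also express (446, 290 and 291 FPKM in WT and 618, 571 and 582 FPKM in Scd-1-/- replicates 1 to 3). The other 7 markers summed to 3.41, 4.53 and 6.12 FPKM in WT and to 15.8, 42.6 and 43.8 FPKM in Scd-1-/- Teff, which were apart too. Of 10 myeloid markers, 2 were tested and 1 called by edgeR and by DESeq2 (Fcer1g, 2.68), with sums of 16.8 to 22.5 and 47.5 to 79.0 FPKM. Cd68, the other gene tested, overlapped at 16.7, 7.79 and 8.30 FPKM in WT and 27.2, 9.57 and 8.42 in Scd-1-/- Teff. The separation of the sums rested on Fcer1g, at 5.05, 8.26 and 10.3 FPKM in WT and 18.4, 61.5 and 68.4 in Scd-1-/- Teff. Below the FPKM minimum, Cd14 was called higher as well, with 11, 5 and 4 counts in WT and 28, 42 and 40 in Scd-1-/- Teff (log2 fold change 2.41, edgeR adjusted p = 0.0956, and 0.0287 with the block). Itgam had 16, 0 and 5 counts in WT and 83, 13 and 16 in Scd-1-/- Teff (2.35, edgeR adjusted p = 0.524, and 0.0464 with the block). Adgre1 was at 0 in every library, and Lyz2 and Csf1r had at most 2 and 4 counts. Mast cell and basophil markers summed to 1.29 to 2.59 and 2.04 to 13.4 FPKM (2 of 8 tested, 0 called by edgeR without the block, 1 with it and 1 by DESeq2, and both higher at an unadjusted p under 0.05), with Ms4a2 and Prss34 at 0. The gene called was Mcpt8, a basophil protease, with 5, 9 and 3 counts in WT and 8, 110 and 125 in Scd-1-/- Teff (blocked log2 fold change 3.56, edgeR adjusted p = 0.0264). Cpa3, a mast cell protease, had a log2 fold change of 1.84 without the block (edgeR adjusted p = 0.420). It averaged 0.703 FPKM in WT and 2.52 in Scd-1-/- Teff. Cpa3 and, with its few WT counts, Mcpt8 thus reached the FPKM minimum through the knockout libraries. That both were higher was therefore largely set by the minimum. Below the FPKM minimum, Kit (42 to 174 counts in WT and 38 to 73 in Scd-1-/- Teff) and Hdc (13 to 27 and 4 to 16 counts) had log2 fold changes of -0.86 and -1.18 (edgeR adjusted p = 0.686 for each), opposite to Mcpt8. Of the Scd-1-/- libraries, replicate 1 was the lowest for Mcpt8 and Cd200r1. It was also the lowest for Pdcd1, Klrg1, Klrb1c, Fcer1g and Sh2d1b1, but not for Entpd1, so this trait was not particular to Mcpt8. CD4 and regulatory T cell markers summed to 9.24 to 13.5 and 9.59 to 11.7 FPKM (1 of 8 tested, 0 called by edgeR or DESeq2 and 0 at an unadjusted p under 0.05), and Foxp3 had at most 5 counts. The gene tested was Zbtb7b, which made up most of that sum. Cd4 itself had 8, 24 and 12 counts in WT and 5, 2 and 1 in Scd-1-/- Teff (log2 fold change -2.49, edgeR adjusted p = 0.344), and the groups were apart. Cxcr5 had a log2 fold change of -1.59 (edgeR adjusted p = 0.608, and 0.0423 with the block). B cell markers summed to 146 to 269 and 97.6 to 146 FPKM (2 of 8 tested, 0 called by edgeR or DESeq2 and 2 lower at an unadjusted p under 0.05, both with an adjusted p under 0.05 with the block), with Ms4a1 and Pax5 at 0. The part of these markers in the receptor values was not tested.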

How the data were processed

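Bulk RNA-seq of CD8+ Teff was analysed in 3 WT and 3 Scd-1-/- libraries, grouped by the genotype in the sample labels. The authors mapped reads with HISAT2 and counted them per gene with StringTie (1.3.0, per the submitters' processing notes, which name GRCm38). They deposited raw read counts per gene, and the deposited FPKM divide those counts by gene length and library size without a TMM factor. The methods name a stranded total RNA kit, the labels poly(A) RNA and another kit, so reads of overlapping genes may have been counted without strand.

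Counts were tested with edgeR 4.0.16 (R 4.3.3, TMM scaling, glmQLFit and glmQLFTest, p-values adjusted by Benjamini-Hochberg over all genes tested) for the 9627 genes averaging 1 FPKM or more. Receptors and listed genes under this minimum came from fitting the 17192 genes with any count. The minimum is a mean over all 6 libraries, so a gene low in WT can pass it through the knockout alone, or the reverse. Intervals are 95% intervals of the fitted log2 fold change. An exact permutation test of 3 libraries against 3 cannot give a p under 0.1, so none was used. Alternatives were a minimum of 5 FPKM or none, median-ratio scaling, robust dispersion, DESeq2 1.42.0, limma 3.58.1 on log2(FPKM + 1) and log2(FPKM + 0.1), the replicate block, a term for replicate 1, replicates 2 and 3 alone, and leaving out each library.

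Pairing by replicate number was checked by correlating deviations from group means over genes. Same-numbered libraries had r = 0.595, 0.306 and 0.470, and as each was above 0.1 the numbers were taken to pair the libraries. Replicates 2 and 3 were not separated from each other in this way, since Scd-1-/- 2 with WT 3 had r = 0.380 and Scd-1-/- 3 with WT 2 had r = 0.180. Pairs of replicate 1 with another number had r of -0.561 to -0.316. Blocked values are printed where they change a call. What the number stands for is not given in the sources used here. The closest replicates of a genotype differed by more than counting noise (chi-square per degree of freedom of at least 12.2).

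The 10 receptors and the gene lists were chosen with earlier results of these data known, and the lists were written by hand. Genes named are the receptors, the 3 genes most correlated with each called receptor, Scd1, and in each list the genes called without the block, then those called only with it as space allowed, largest change first. Other listed genes, named as direct partners of a receptor, were chosen after their values were seen. Gene positions follow GENCODE M21 (GRCm38).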

Additional observations from a re-analysis of the deposited data

How the results depend on the processing

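The sign of the log2 fold change of each of the 10 receptors was kept in all 160 values (16 alternatives for each). Not all of these are separate fits. Btla and Cd200r1 keep their main value with no minimum and with a minimum of 5. Cd244 at a minimum of 5 repeats its value without a minimum. Over all genes, the 71 called became 148 without the FPKM minimum, 43 at a minimum of 5, 161 with DESeq2, 184 with the replicate block, 209 with a term for replicate 1 and 369 in replicates 2 and 3 alone, and 25 to 163 on leaving out a library. The 11 genes with an adjusted p under 0.05 became 84, 18, 266, 452, 539 and 1213 in that order, 17 with limma on log2(FPKM + 1), and 2 to 182 on leaving out a library. Of the receptors, 3 were called in these fits except for 4 with the term for replicate 1, 5 in replicates 2 and 3 alone, and 1 to 4 on leaving out a library (1 without WT replicate 3 or Scd-1-/- replicate 3). Receptors with an adjusted p under 0.05 numbered 1, against 4 without the minimum and 2 at a minimum of 5. The latter were Pdcd1 and Cd244. As Cd244 averaged under 5 FPKM, its value there came from the fit without a minimum (edgeR adjusted p = 0.0309). Such receptors numbered 4 with DESeq2, 2 with limma on log2(FPKM + 1), 4 with the block and 5 with the term. In replicates 2 and 3 alone there were 7 (6 higher and 1 lower), and on leaving out a library 0 to 5. Where edgeR gave 0, 5 or 6 receptors had an unadjusted p under 0.05. Called genes of the functional lists numbered 5, against 8 without the minimum, 12 with DESeq2, 10 with the pairing by block, 13 with the term, 18 in replicates 2 and 3 alone, and 2 to 11 on leaving out a library. The cause of these shifts was not tested. Counts were under about 100 in Cd200r1, Btla and part of Cd244, and how far this limits their precision was not tested.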
